A study of Mus musculus with 16 samples.

Results

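Transcript levels of 30 nuclear genes of the later part of the mitochondrial respiratory chain were followed across 16 mouse hearts. The genes are the 4 subunits of complex II (succinate dehydrogenase), 9 subunits of complex III (the cytochrome bc1 complex), the electron carrier cytochrome c, and 16 genes of complex IV (cytochrome c oxidase), among them tissue isoforms and 2 associated factors. They were picked by symbol and not by a cut on measured values, though earlier results of these data were known. All 30 were found among the 30153 genes of the deposited table, and all 30 passed the filter on low values that left 11415 genes to be tested, so no member was lost to the filter.

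The hearts came from 4 groups of C57/BL6 mice. Western-diet Hap-I mice of the aged group gave 5 libraries, aged Hap-I mice without a stated diet gave 4, adult Hap-I mice labelled with the western diet gave 4, and adult C57 mice gave 3. Hap-I stands for haplotype I of a human gene, that of the type 1 receptor of angiotensin II, which these mice carry and, per the series title, overexpress; the promoter used and the number of transgenic lines are not given in the sources used here. The series design text lists the adult Hap-I group with no diet, whereas the label of each of its 4 samples states a western diet, and the sample labels were followed. No C57 mice that were aged or on the diet were included, so in any contrast with C57 the transgene cannot be told apart from age, from diet, or from both. The design text describes the libraries as separate animals; litter, sex, months of age and date of collection are not given.

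Values are TPM, an abundance per length of transcript, divided by 1 size factor per library and called scaled TPM below. TPM keep no sequencing depth, so the depth is unknown and errors are spreads between animals. Ventricular cardiomyocyte markers such as Myl2 (12300 to 19800 scaled TPM) were abundant in every library, and the skeletal muscle myosins Myh1, Myh2 and Myh4 stayed under 1 scaled TPM in all 16. Several properties of the libraries differed between groups. Of the aged western-diet replicates, 1, 2 and 3 had almost no Y-linked transcripts, and of the adult western-diet replicates, 1 and 2. The 4 atrial markers summed to 2.34 to 31.4 scaled TPM in aged western-diet hearts, 3.1 to 2190 in aged Hap-I hearts, 3.29 to 681 in adult western-diet hearts and 49.6 to 3340 in C57 hearts. The 12 ventricular markers summed to 37100 to 45000 scaled TPM in aged western-diet hearts, 39700 to 50200 in aged Hap-I hearts, 36600 to 46700 in adult western-diet hearts and 47900 to 52500 in C57 hearts. Both western-diet groups lay below C57 with no overlap, and the aged Hap-I hearts overlapped with C57. Because the samples are bulk tissue, fewer cells of a type and less RNA per cell cannot be told apart.

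Complex II oxidises succinate in the tricarboxylic acid cycle and passes the electrons to ubiquinone. Complex III moves electrons from reduced ubiquinone to cytochrome c and pumps protons, and complex IV hands them from cytochrome c to oxygen. Heart muscle depends on this chain for most of its ATP, and it uses muscle isoforms of several complex IV subunits in place of the forms found in other tissues.

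The 30 genes together took 5.03% to 6.75% of the nuclear TPM of a library. In the sum over the 30 genes, aged western-diet hearts held 22849 ± 4615 scaled TPM (SD, n = 5), aged Hap-I hearts 23582 ± 2631 (SD, n = 4), adult western-diet hearts 26046 ± 4970 (SD, n = 4) and C57 hearts 29475 ± 464 (SD, n = 3). Aged western-diet libraries lay between 17975 and 28638, and C57 libraries between 28958 and 29857, so these 2 groups did not overlap. The adult western-diet group spread from 19974 to 31612 and covered the C57 values.

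On the per-length TPM scale the most abundant members were the muscle isoform Cox7a1 (mean of 16 libraries, 2300 scaled TPM), Cox4i1, the largest nuclear-encoded subunit (2220), and Cox6c (2000), all of complex IV. Complex III was led by its small subunits Uqcrh (1600) and Uqcr11 (1280), while the core protein Uqcrc1 averaged 325 scaled TPM. Complex II transcripts were less abundant, between 276 scaled TPM for the membrane anchor Sdhc and 695 for the iron-sulfur subunit Sdhb. Cycs, which encodes somatic cytochrome c, averaged 83.3 scaled TPM. At the low end were Cox4i2, an isoform known from lung, at 10.3 scaled TPM, and Ndufa4, a subunit first assigned to complex I and later to complex IV, at 3. Ndufa4 was listed at 0.594 to 5.16 scaled TPM, far below the other complex IV subunits of the heart, and the cause was not tested.

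**Figure D1:**
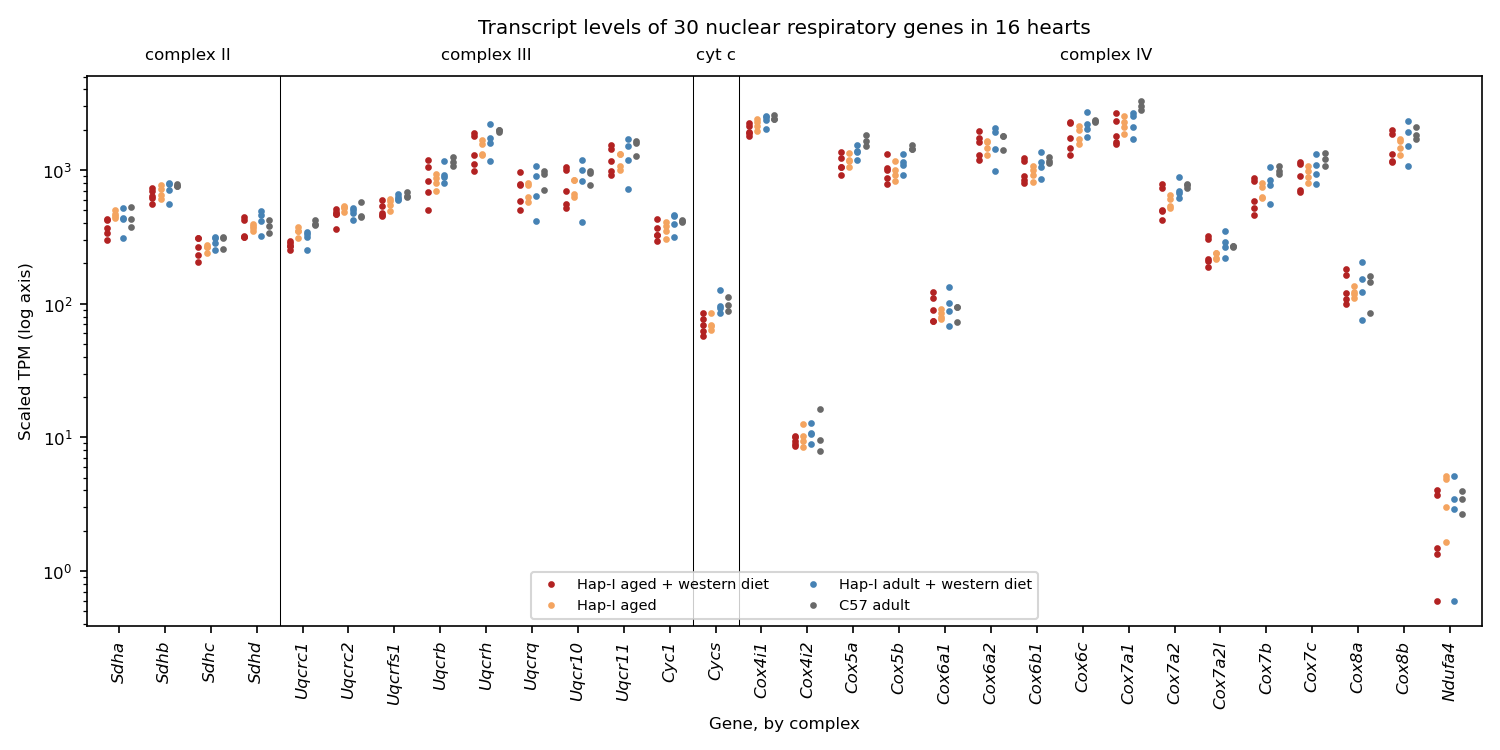
Scaled TPM (log axis) of the 30 genes, ordered by complex, with 1 point per heart; colours give the 4 groups, the Hap-I groups left of C57 for each gene. Cycs, Cox4i2, Cox6a1, Cox8a and Ndufa4 have the lowest means, and the other members lie between 189 (Cox7a2l) and 3271 (Cox7a1) scaled TPM.

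Of the 7 contrasts, the one with the most called members set aged western-diet hearts against C57 hearts: 7 of the 30 genes passed limma's test at an adjusted p under 0.05 (Benjamini-Hochberg over all 11415 genes), all 7 lower in the aged western-diet hearts and none higher. Among all genes tested, 21.9% were called in this contrast in either direction and 9.57% were called lower, against which the 7 of 30 must be read. The members' median log2 fold change was -0.32, with 28 of 30 values below 0, where 50.2% of all genes lay below 0 around a median near 0. In 10 members every aged western-diet library lay below every C57 library, as did 11.2% of all genes. The 7 called members were Uqcrc1 and Uqcrfs1 of complex III, Cycs, and Cox5a, Cox5b, Cox7a1 and Cox7b of complex IV; no gene of complex II was called.

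In complex II, Sdhb, the iron-sulfur subunit, had 553, 693, 612, 735 and 634 scaled TPM in the 5 aged western-diet hearts, 720, 767, 603 and 651 in the 4 aged Hap-I hearts, 711, 780, 799 and 560 in the 4 adult western-diet hearts, and 765, 779 and 756 in the 3 C57 hearts. Every aged western-diet library lay below every C57 library, yet the spread within the Hap-I groups was wide, and the log2 fold change of -0.25 had an adjusted p of 0.169 in limma. Sdha, the catalytic flavoprotein, had 419, 367, 431, 337 and 298 scaled TPM in aged western-diet hearts, 453, 466, 439 and 503 in aged Hap-I hearts, 435, 309, 431 and 517 in adult western-diet hearts, and 428, 529 and 374 in C57 hearts. It was the one complex II gene for which both aged groups stood apart from each other, with all 5 western-diet values under all 4 without the diet (log2 fold change -0.34 ± 0.15 SE, limma adjusted p = 0.286). The anchor subunits showed overlapping groups against C57. Sdhd had 314, 421, 314, 443 and 318 scaled TPM in aged western-diet hearts, 382, 392, 348 and 371 in aged Hap-I hearts, 415, 492, 459 and 323 in adult western-diet hearts, and 380, 421 and 340 in C57 hearts. Sdhc ranged from 206 to 311 scaled TPM in aged western-diet hearts, 240 to 273 in aged Hap-I hearts, 251 to 314 in adult western-diet hearts and 258 to 314 in C57 hearts. Over the 7 contrasts no complex II gene was called by limma, the smallest adjusted p being 0.169; at an unadjusted p under 0.05 the count was 1, for Sdha between the 2 aged groups.

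In complex III, Uqcrc1 (ENSMUSG00000025651, chr9:108936633-108949623), a core protein on the matrix side, had 286, 252, 292, 270 and 272 scaled TPM in aged western-diet hearts, 352, 375, 309 and 350 in aged Hap-I hearts, 315, 252, 341 and 330 in adult western-diet hearts, and 390, 420 and 392 in C57 hearts. All 13 Hap-I values lay below the 3 C57 values. In limma it was lower in aged western-diet than in C57 hearts by a log2 fold change of -0.54 ± 0.10 (SE, adjusted p = 0.00281), the smallest adjusted p among the 30 genes in any contrast. The other core protein, Uqcrc2, had a log2 fold change of -0.10 and an adjusted p of 0.592, so the 2 core genes did not share a call. Whether the 2 differ from each other was not tested.

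Uqcrfs1 (ENSMUSG00000038462, chr13:30540308-30545362), the Rieske iron-sulfur protein, had 463, 541, 473, 595 and 449 scaled TPM in aged western-diet hearts, 585, 606, 497 and 545 in aged Hap-I hearts, 595, 632, 664 and 607 in adult western-diet hearts, and 633, 682 and 639 in C57 hearts. Aged western-diet values did not overlap with C57 values, and lay at or below the lower edge of the adult western-diet range. The log2 fold change against C57 was -0.38 ± 0.11 (SE, limma adjusted p = 0.0215). Uqcrb, a small subunit near the ubiquinone site, had 502, 1058, 684, 1178 and 832 scaled TPM in aged western-diet hearts, 864, 932, 700 and 796 in aged Hap-I hearts, 796, 1174, 889 and 915 in adult western-diet hearts, and 1140, 1260 and 1070 in C57 hearts. The aged western-diet libraries spread widely on either side of their mean, and it was not called (log2 fold change -0.50, limma adjusted p = 0.115). The other small subunits, Uqcrh, Uqcrq, Uqcr10 and Uqcr11, and the haem-carrying Cyc1 had log2 fold changes between -0.52 and -0.27 against C57, and none of these was called.

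Cycs (ENSMUSG00000063694, chr6:50562563-50566538) had 57.2, 76.8, 62.7, 84.5 and 69.7 scaled TPM in aged western-diet hearts, 68.8, 85.1, 63.2 and 67.6 in aged Hap-I hearts, 96.4, 126, 93.1 and 84.4 in adult western-diet hearts, and 97.4, 112 and 87.8 in C57 hearts. Both aged groups lay below C57 without overlap, and the adult western-diet group covered the C57 range. The log2 fold change of aged western-diet against C57 hearts was -0.50 ± 0.15 (SE, limma adjusted p = 0.0267). The value may depend on how reads were divided between copies of the gene, which was not tested. Of the 31-base words of Cycs transcripts, 26.2% also occur in Gm10053 on chromosome 19, which averaged 661 scaled TPM, and 7.5% in the processed pseudogene Gm10108 on chromosome 5, at 449 scaled TPM. Cycs held 5.53% to 8.48% of the sum of the 3. The sum was 995, 1317, 1006, 1413 and 898 scaled TPM in aged western-diet hearts and 1242, 1324 and 1245 in C57 hearts, overlapping groups with a log2 fold change of -0.20 (limma adjusted p = 0.404). The lower level of Cycs is therefore uncertain.

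Within complex IV, 4 of 16 genes were called against C57. Cox5a (ENSMUSG00000000088, chr9:57521274-57532426), a matrix-side subunit, had 916, 1238, 1044, 1355 and 1047 scaled TPM in aged western-diet hearts, 1181, 1349, 1046 and 1177 in aged Hap-I hearts, 1380, 1538, 1364 and 1181 in adult western-diet hearts, and 1638, 1835 and 1501 in C57 hearts. Only adult western-diet replicate 2, at 1538, reached into the C57 range. The log2 fold change was -0.57 ± 0.14 (SE, limma adjusted p = 0.00896) for aged western-diet against C57 hearts and -0.48 ± 0.14 (SE, adjusted p = 0.042) for aged Hap-I against C57 hearts.

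Cox5b (ENSMUSG00000061518, chr1:36691449-36693681), a zinc-binding matrix-side subunit, had 788, 1027, 866, 1312 and 992 scaled TPM in aged western-diet hearts, 1005, 1171, 826 and 923 in aged Hap-I hearts, 1088, 1322, 1154 and 912 in adult western-diet hearts, and 1435, 1537 and 1445 in C57 hearts. All 13 Hap-I libraries lay below the lowest C57 library. The log2 fold change against C57 was -0.58 ± 0.16 (SE, limma adjusted p = 0.0195) in aged western-diet hearts, -0.60 ± 0.17 (SE, adjusted p = 0.0343) in aged Hap-I hearts and -0.41 (adjusted p = 0.187) in adult western-diet hearts. Cox5a and Cox5b were the 2 members called in aged Hap-I hearts without the diet.

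Cox7a1 (ENSMUSG00000074218, chr7:30184144-30186078), the heart and skeletal muscle isoform of subunit VIIa, had 1552, 2335, 1620, 2680 and 1807 scaled TPM in aged western-diet hearts, 2290, 2516, 1848 and 2080 in aged Hap-I hearts, 2083, 2685, 2533 and 1706 in adult western-diet hearts, and 2818, 3008 and 3271 in C57 hearts. The highest Hap-I library, at 2685, stayed below the lowest C57 library. The log2 fold change of aged western-diet against C57 hearts was -0.63 ± 0.19 (SE, limma adjusted p = 0.0281). Cox7b (ENSMUSG00000031231, chrX:106015700-106022450), an X-linked subunit whose gene is mutated in a rare human developmental syndrome, had 463, 832, 520, 868 and 584 scaled TPM in aged western-diet hearts, 740, 805, 613 and 631 in aged Hap-I hearts, 772, 1047, 840 and 554 in adult western-diet hearts, and 989, 1062 and 940 in C57 hearts. Here the adult western-diet replicate 2 again lay within the C57 range, and the other Hap-I libraries lay below it. The log2 fold change was -0.65 ± 0.22 (SE, limma adjusted p = 0.0421), the largest decrease among the 30 genes in this contrast.

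The remaining complex IV genes were not called. Cox4i1, Cox6b1, Cox6c, Cox7a2, Cox7c and Cox8b had log2 fold changes between -0.43 and -0.29 in aged western-diet against C57 hearts, and Cox6a1 and Cox8a, the isoforms found outside muscle, stood at 0.08 and 0.07. Cox7a2l, a factor that joins complexes III and IV into supercomplexes, had a value of -0.14 (adjusted p = 0.569). Cox6a2, the muscle isoform of VIa, had -0.11, Cox4i2 -0.16, and the low-level Ndufa4 -0.55 with an adjusted p of 0.368.

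**Figure D2:**
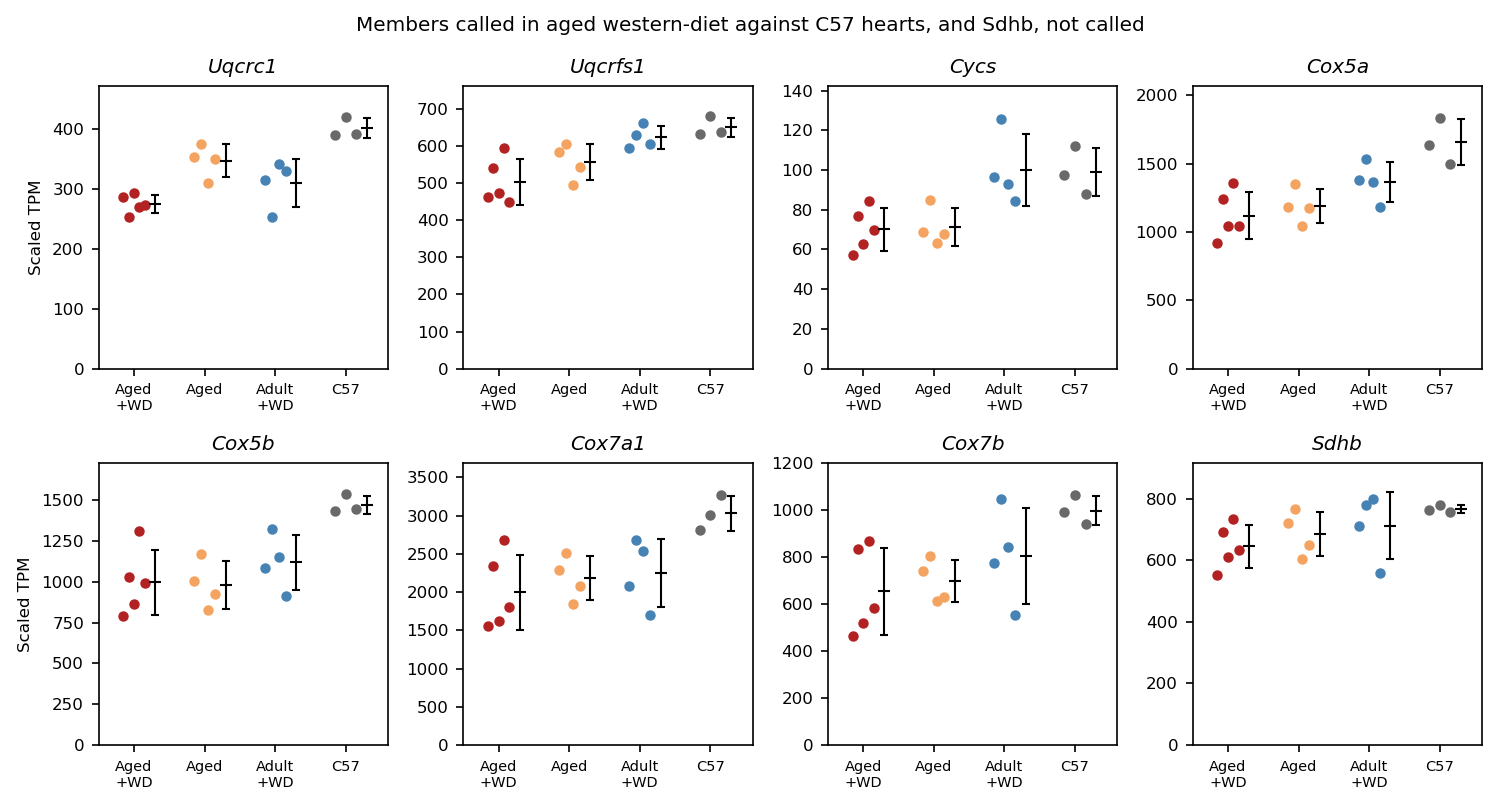
Scaled TPM of the 7 called genes and of Sdhb, with 1 point per heart in aged western-diet (n = 5), aged (n = 4) and adult western-diet (n = 4) Hap-I and C57 (n = 3) groups; black marks are the mean and SD. In each panel the aged western-diet hearts lie below the C57 hearts, for instance 252 to 292 against 390 to 420 for Uqcrc1.

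These calls depended on the scaling, on a few libraries and on a term for Y-linked transcripts. With quantile normalization in place of size factors 2 members were called lower, Cycs and Cox7b, and the median log2 fold change of the members was -0.01, against -0.32 with size factors. With quantile normalization no member was called in aged Hap-I hearts or in the Hap-I mean against C57, where the members' medians were -0.01 and 0.01. In a fit of only the aged western-diet and C57 libraries 2 members were called lower, Uqcrc1 and Cox5a. Without C57 replicate 1, 2 or 3 the number of called members in aged western-diet against C57 hearts was 2, 2 and 3, and Uqcrc1 and Cox5a were called each time. Without aged western-diet replicate 1 or 3 the number was 4. Calls among all genes, in either direction, numbered 1370, 2012 and 1255 without C57 replicate 1, 2 or 3. They numbered 2194 and 1912 without aged western-diet replicate 1 or 3, against 2498 with all libraries. Uqcrc1 was not called without scaling (limma adjusted p = 0.115), with quantile normalization (0.18), with the length and Y-linked terms together (0.108) or with nuclear transcripts only. The last setting dropped genes whose symbol starts with mt- but kept abundant nuclear pseudogenes near-identical to them, such as Gm28661. With a term for the presence of Y-linked transcripts 2 members were called, Uqcrc1 (log2 fold change -0.49, limma adjusted p = 0.0215) and Cox5a, and among the libraries that had such transcripts 1, Uqcrc1. With a covariate for atrial markers 4 were called. Of all 11415 genes, these 3 settings called 558, 359 and 259 lower, in that order. The sum of ventricular markers was lower than in C57 in the aged western-diet hearts, and also in the adult western-diet hearts, where no member was called, and its part in the result was not tested. In aged western-diet against C57 hearts limma called lower all 4 atrial markers, 3 of 4 tested smooth muscle markers, 1 of 6 fibroblast markers and 1 of 2 tested white adipocyte markers, and none of the 5 endothelial markers (smallest adjusted p = 0.128) or the 5 macrophage markers (smallest adjusted p = 0.0691). Of the 12 ventricular markers 2 were called lower and 1 higher, and of the 4 tested skeletal muscle markers 1 was called higher.

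Sequence upstream of the genes was inspected because 4 regulators of respiratory genes, described further on, differed between the same groups. The 250 bases before the RefSeq transcription start (GRCm38.p6) were at hand for 21 of the 30 members and were searched on both strands for short core motifs. The NRF1 core GCGCATG occurred in 4 of the 21 (19%), Cox5b, Cox6a1, Cycs and Sdhb, and in 3.24% of 32851 promoters of all genes. The ETS core CCGGAAG, the kind bound by GABPA, occurred in 5 (23.8%), Cox6a1, Cox6b1, Sdhd, Uqcr11 and Uqcrh, against 6.91% of all promoters. The YY1 core ATGGCG occurred in 3 (14.3%), Cox5a, Cox7c and Cycs, against 5.73%, and the ERR core AAGGTCA in 0 against 4.08%. Among the 7 called members the NRF1 core occurred in 2, the YY1 core in 2, and the ETS and ERR cores in 0. Uqcrc1, Uqcrfs1, Cox7a1 and Cox7b held none of the 4 cores. Nrf1 and Yy1 themselves were not called in aged western-diet against C57 hearts (limma adjusted p = 0.0814 and 0.0641). A match is a description of letters, not of binding. The windows of 4 called members are printed here, 3 that hold a core and Cox7a1, which holds none of the 4; matches are in capitals, and on the minus strand of the promoter they read as the reverse complement (CATGCGC for NRF1 and CGCCAT for YY1, both in Cycs).
Cycs: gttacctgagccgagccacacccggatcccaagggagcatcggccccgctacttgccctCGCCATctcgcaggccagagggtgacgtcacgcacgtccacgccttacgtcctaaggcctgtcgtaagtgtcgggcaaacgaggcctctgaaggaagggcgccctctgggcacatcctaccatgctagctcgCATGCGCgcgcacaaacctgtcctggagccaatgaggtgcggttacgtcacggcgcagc
Cox5b: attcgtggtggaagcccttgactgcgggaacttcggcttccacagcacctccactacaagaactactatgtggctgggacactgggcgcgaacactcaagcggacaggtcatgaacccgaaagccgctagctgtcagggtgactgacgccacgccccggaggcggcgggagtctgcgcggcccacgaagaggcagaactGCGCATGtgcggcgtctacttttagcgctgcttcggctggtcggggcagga
Cox5a: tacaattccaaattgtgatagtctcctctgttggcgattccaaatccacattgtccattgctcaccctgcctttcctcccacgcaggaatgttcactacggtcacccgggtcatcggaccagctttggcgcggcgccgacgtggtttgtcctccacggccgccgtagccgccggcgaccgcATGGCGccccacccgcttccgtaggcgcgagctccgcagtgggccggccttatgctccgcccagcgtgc
Cox7a1: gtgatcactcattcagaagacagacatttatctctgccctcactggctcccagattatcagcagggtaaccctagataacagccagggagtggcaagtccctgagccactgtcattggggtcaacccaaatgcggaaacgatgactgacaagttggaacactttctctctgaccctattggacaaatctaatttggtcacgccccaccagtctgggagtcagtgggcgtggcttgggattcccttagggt
The Cycs window lies at chr6:50566570-50566819 (minus strand), the Cox5b window at chr1:36691237-36691486, the Cox5a window at chr9:57520982-57521231 and the Cox7a1 window at chr7:30183921-30184170 (plus strand for these 3). The NRF1 core lies at bases -59 to -53 of Cycs and -51 to -45 of Cox5b, and the YY1 core at -191 to -186 of Cycs and -69 to -64 of Cox5a, counted from the transcription start.

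Against C57, fewer members were called in the other Hap-I groups, which share the same 3 C57 libraries. In aged Hap-I hearts without the diet 2 of 30 were called lower by limma, Cox5a and Cox5b, and none higher, where 11.2% of all genes were called and 4.06% were called lower. The median log2 fold change of the members was -0.26, and in 17 members every aged Hap-I library lay below every C57 library, as did 16.1% of all genes. Omitting any of the C57 libraries, or aged replicate 1, 3 or 4, left 0 called, and omitting aged replicate 2 left 3. Of all genes, 112, 387 and 117 were called lower without C57 replicate 1, 2 or 3. Without aged replicate 1, 2, 3 or 4 it was 250, 418, 246 and 174. In adult western-diet hearts none of the 30 was called, where 3.45% of all genes were, and 3 members had an unadjusted p under 0.05. The members' median was -0.11, but -0.30 without scaling, -0.20 with the atrial covariate, -0.23 in the libraries that held Y-linked transcripts, -0.18 with nuclear transcripts only, -0.04 with library weights and 0.02 with quantile normalization. Uqcrc1 had the smallest adjusted p (log2 fold change -0.38, limma adjusted p = 0.0674). In the mean of the 3 Hap-I groups, weighted equally, against C57, 4 members were called lower, Uqcrc1 (-0.38, adjusted p = 0.0128), Cox5a (-0.45, 0.0218), Cox5b (-0.53, 0.0211) and Cox7a1 (-0.52, 0.0459), where 15.7% of all genes were called and 6.31% were called lower. Without any 1 of the C57 libraries this count was 0. Of all genes, 209, 574 and 214 were called lower without C57 replicate 1, 2 or 3.

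**Figure D3:**
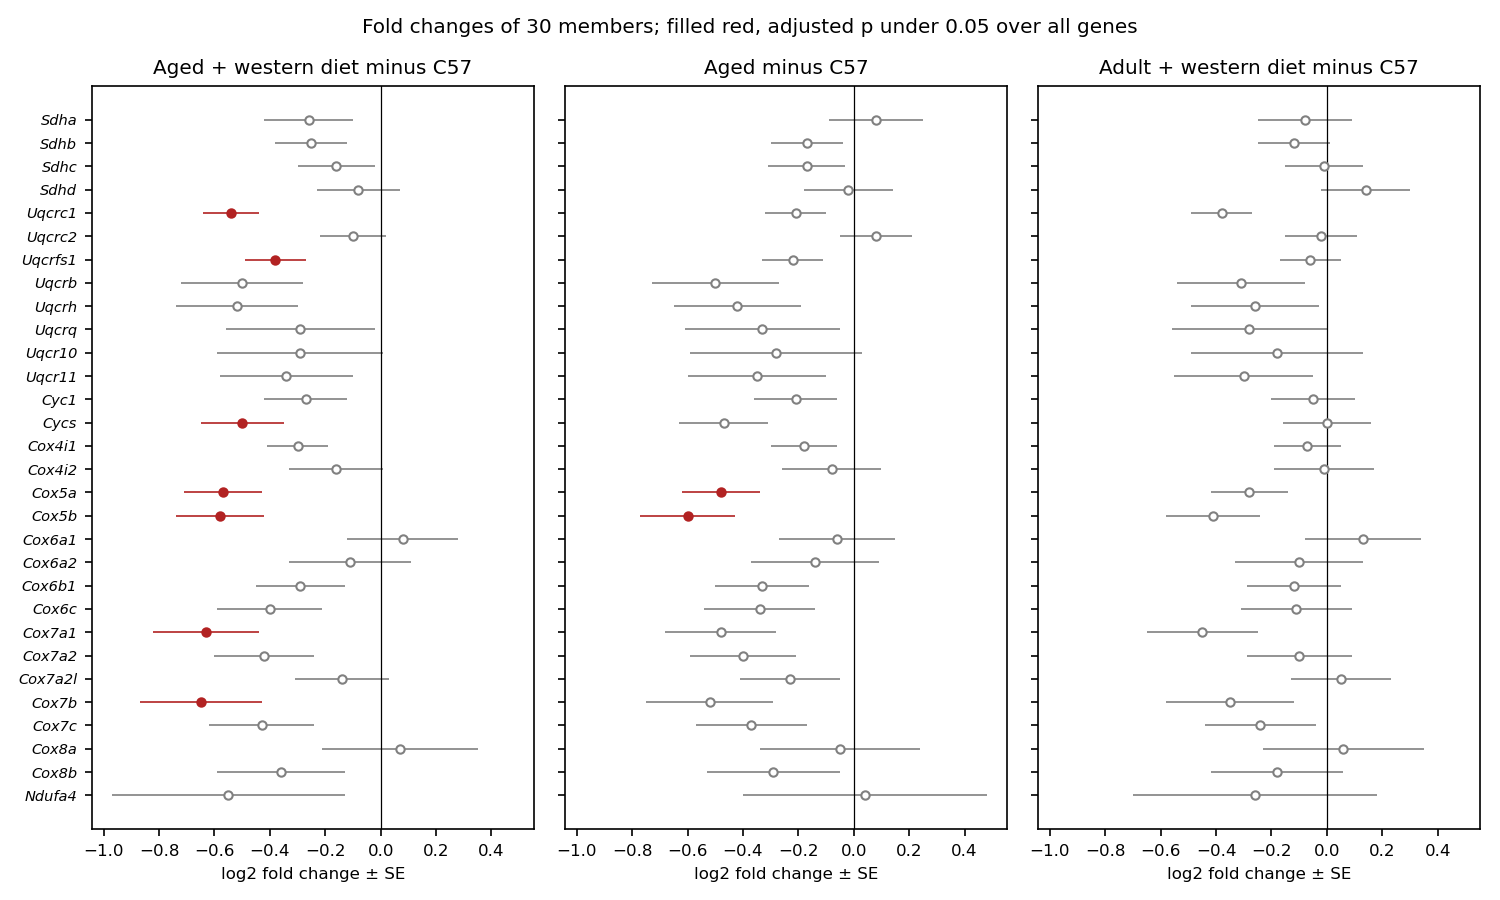
Log2 fold change with its SE for the 30 genes in aged western-diet, aged and adult western-diet Hap-I hearts against the same C57 hearts; filled red points have a limma adjusted p under 0.05 over all genes. Called members number 7, 2 and 0 in the 3 panels, and values run from -0.65 (Cox7b, aged western-diet) to 0.14 (Sdhd, adult western-diet).

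Within the Hap-I groups none of the 30 genes was called. For the western diet in aged hearts, 0 of 30 were called by limma where 0.166% of all genes were, 2 had an unadjusted p under 0.05, and the median log2 fold change was -0.06. That median was -0.26 without scaling, -0.14 with nuclear transcripts only, -0.13 with library weights or the atrial covariate, -0.10 with the length correction, -0.03 with quantile normalization and 0.07 among libraries with Y-linked transcripts. Uqcrc1 had the smallest adjusted p (log2 fold change -0.33 ± 0.10 SE, adjusted p = 0.126), and its 5 western-diet values of 252 to 292 scaled TPM lay below the 4 values of 309 to 375 without the diet. In complex IV the smallest adjusted p in this contrast was 0.492, for Ndufa4, whose values of 1.48, 0.594, 4.03, 3.69 and 1.35 scaled TPM in aged western-diet hearts overlapped with 4.89, 2.99, 1.65 and 5.16 in aged Hap-I hearts.

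For age under the western diet, again 0 of 30 were called, where 2.39% of all genes were, and 4 had an unadjusted p under 0.05. The values lay below 0 in 29 of the 30 members, with a median of -0.18, where 51.3% of all genes lay below 0. That median was -0.03 without scaling, -0.04 with nuclear transcripts only, -0.06 with quantile normalization, -0.05 with the length correction and 0.05 in the libraries that held Y-linked transcripts, where its sign turned. Cycs had the smallest adjusted p (log2 fold change -0.50, limma adjusted p = 0.0609), then Uqcrfs1 (-0.31, adjusted p = 0.0884). Without aged western-diet replicate 4 the 2 genes Uqcrfs1 and Cycs were called, and without adult western-diet replicate 4 only Cycs. Of all genes, 188 and 149 were called lower under these 2 omissions, against 82 with all libraries. For aged Hap-I hearts against adult western-diet hearts, where age and the labelled diet cannot be told apart, 0 of 30 were called against 2.14% of all genes, 1 had an unadjusted p under 0.05, and the median was -0.14. It was 0.21 without scaling, 0.07 with nuclear transcripts only and 0.06 with the length correction. Cycs was again the gene of smallest adjusted p (log2 fold change -0.48, limma adjusted p = 0.088), and it was called without adult western-diet replicate 4. Of all genes, 297 were called lower without that library, against 101 with all libraries. In complex IV the gene of smallest adjusted p was Cox7a2l (log2 fold change -0.28, limma adjusted p = 0.338). It had 239, 238, 215 and 221 scaled TPM in aged Hap-I hearts and 263, 350, 288 and 220 in adult western-diet hearts.

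Isoform pairs of complex IV allow a comparison inside a library that does not depend on scaling between libraries. In each of the 4 pairs the form typical of heart was the more abundant one in every library. The level of Cox8a, the form of other tissues, was 8.75, 8.96, 9.31, 9.08 and 9.11% of that of Cox8b in aged western-diet hearts, 8.14, 7.15, 9.06 and 7.55% in aged Hap-I hearts, 8.14, 8.72, 7.98 and 7.03% in adult western-diet hearts, and 7.99, 4.98 and 7.64% in C57 hearts. All 5 aged western-diet values were above the adult western-diet and the C57 values. In exact two-sided permutation tests the log2 ratio differed by 0.19 from adult western-diet hearts (p = 0.0159) and by 0.43 from C57 hearts (p = 0.0357), the smallest p each design allows. With Benjamini-Hochberg adjustment over 24 tests both had an adjusted p of 0.254 in these exact tests, so neither passed.

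Cox6a1 stood at 6.2, 6.38, 5.71, 6.22 and 5.54% of Cox6a2 in aged western-diet hearts, 5.19, 5.66, 6.1 and 5.27% in aged Hap-I hearts, 6.16, 6.46, 5.22 and 6.88% in adult western-diet hearts, and 5.27, 5.17 and 5.32% in C57 hearts. The aged western-diet values all exceeded the C57 values, by 0.19 on the log2 scale (exact permutation p = 0.0357, adjusted 0.254). Cox7a2 stood at 27.2, 33.4, 30.4, 27.4 and 27.6% of Cox7a1 in aged western-diet hearts, 26.5, 25.9, 28.1 and 26% in aged Hap-I hearts, 32.4, 33.2, 27.4 and 36% in adult western-diet hearts, and 27.7, 25.7 and 22.4% in C57 hearts. These groups overlapped, and the smallest exact p for this pair was 0.0571. Cox4i2 stayed between 0.326 and 0.626% of Cox4i1 in all 16 libraries, with the lowest and the highest value both in C57 hearts. None of the 24 isoform tests passed after adjustment; since the smallest p a single test could give was 0.0159 to 0.0571, no single test could have passed alone. Reads from near-identical stretches were divided by estimate, and the assignment error of these small ratios was not tested. Cox8a, Cox8b, Cox7a1 and Cox4i2 shared 0.0% of the words of their transcripts with other genes. Cox4i1 shared 12.9%, Cox6a1 18.5%, Cox6a2 6.2% and Cox7a2 3.4%. The listed genes that share them summed to 3869 scaled TPM for Cox4i1, 0.0 for Cox6a1, 0.28 for Cox6a2 and 4.68 for Cox7a2.

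The members varied together from library to library. The median deviation of the 30 genes from their own means ran from -0.41 (log2) in aged western-diet replicate 1, where 2 of the 30 were above their mean, to 0.41 in adult western-diet replicate 2, where 27 were. In the aged western-diet group replicates 2 and 4 stood at 0.16 and 0.22 and replicates 1, 3 and 5 at -0.41, -0.28 and -0.21. All 3 C57 libraries stood between 0.17 and 0.24. The same libraries differed in a property of the whole transcriptome, the rank correlation across genes between a gene's deviation and its transcript length. Members are short, with a median transcript length of 735 bases where all genes tested have 3026. Over the 16 libraries the members' deviation and this length correlation were related at Pearson r = -0.92 and Spearman rho = -0.91. Each had a permutation p of 1e-05 in 100000 permutations, the smallest they can give. Without the 2 libraries farthest from the median, aged western-diet replicate 1 and aged replicate 3, r was -0.89, and with group means removed it was -0.96. This was the only relation of the kind computed; the members are themselves short genes, so the 2 measures share the same libraries and part of the same signal.

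The length correlation averaged 0.16 ± 0.37 in aged western-diet (SD, n = 5), 0.31 ± 0.22 in aged (SD, n = 4) and -0.24 ± 0.35 in adult western-diet Hap-I hearts (SD, n = 4), and -0.26 ± 0.12 in C57 hearts (SD, n = 3). With each library corrected for transcript length, the members' median log2 fold change against C57 was -0.16 in aged western-diet hearts, -0.05 in aged Hap-I hearts and -0.07 in adult western-diet hearts, where it had been -0.32, -0.26 and -0.11. All 7 members called in aged western-diet against C57 hearts were called again, with smaller fold changes except in Cycs, and with smaller errors except in Cycs and Uqcrc1. Cox7a1 had -0.40 ± 0.07 with the correction (SE, limma adjusted p = 0.00298) and -0.63 ± 0.19 without it, and Cox5b had -0.39 ± 0.08 with it (adjusted p = 0.00562) and -0.58 ± 0.16 without. Uqcrh was added (-0.29, adjusted p = 0.0245). Of all genes, 1111 were called lower and 1100 higher with the correction, and 1092 and 1406 without it. Cox6a1 was then called higher (0.31 ± 0.07 SE, adjusted p = 0.00979), a change that scaled TPM without the correction did not show. Cox5b was also called lower after the correction in aged Hap-I (-0.36, adjusted p = 0.0245) and adult western-diet hearts (-0.36, adjusted p = 0.0295), and Cox7a1 in adult western-diet hearts (-0.38, adjusted p = 0.0145). With the correction and the Y-linked term together, Cox5b, Cox7a1 and Cox7b remained called lower and Cox6a1 higher in aged western-diet against C57 hearts.

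**Figure D4:**
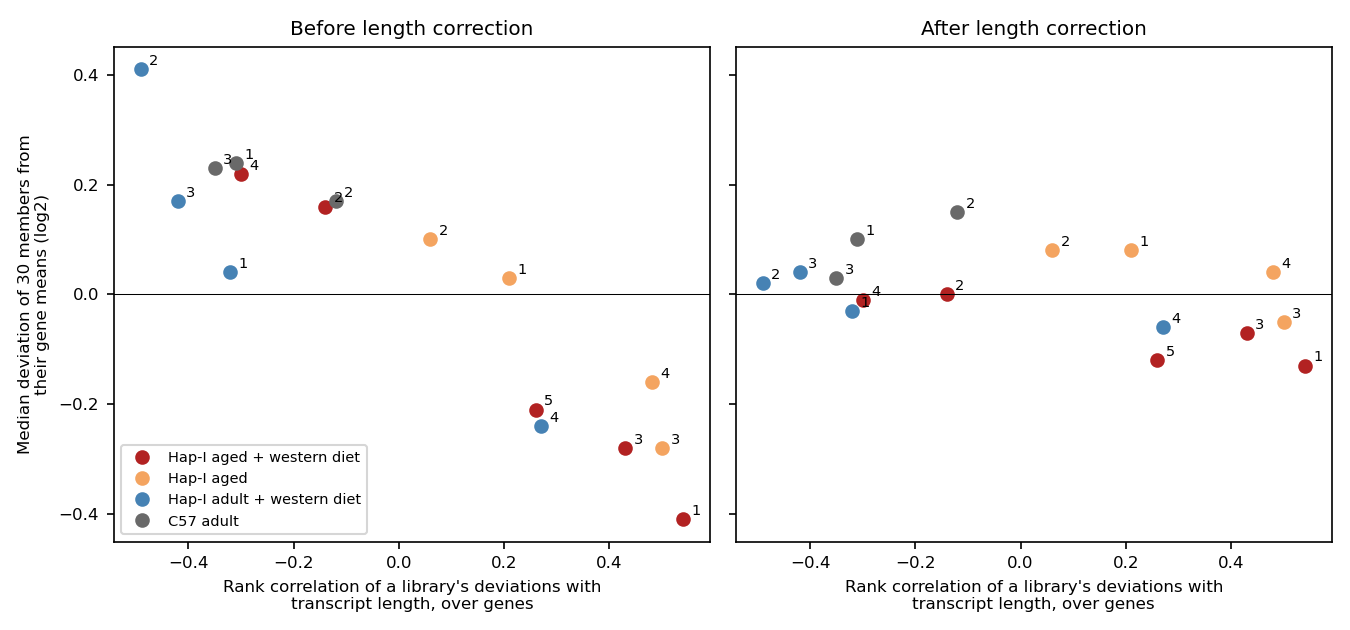
Each point is 1 heart, numbered by replicate: the median log2 deviation of the 30 genes from their means against the library's rank correlation of deviations with transcript length, before (left) and after (right) correction for length. Before correction the points fall along a line (r = -0.92, n = 16); after it the members' deviations lie between -0.13 and 0.15.

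The mitochondrially encoded subunits of complexes III and IV are assembled with the nuclear ones and form the catalytic core of complex IV. Their 4 values against C57, as listed, were of mixed sign in aged western-diet hearts. mt-Cytb, the cytochrome b of complex III, averaged 49500 ± 14500 scaled TPM in aged western-diet hearts (SD, n = 5) and 36100 ± 3750 in C57 hearts (SD, n = 3; log2 fold change 0.41, limma adjusted p = 0.225). mt-Co1, which holds the oxygen-reducing site, averaged 91100 ± 25000 against 57100 ± 9470 in the same groups (0.64, adjusted p = 0.0671); summed with its near-identical copies Gm13340 and Gm29216 its log2 fold change was -0.03 (limma adjusted p = 0.949). mt-Co2, which accepts electrons from cytochrome c, had 13618, 17647, 17038, 29715 and 20926 scaled TPM in aged western-diet hearts, 15644, 18175, 11284 and 18629 in aged Hap-I hearts, 24567, 32297, 25509 and 31358 in adult western-diet hearts, and 42630, 55261 and 24495 in C57 hearts. The aged western-diet values overlapped with C57 at C57 replicate 3. As listed, mt-Co2 was called lower in aged western-diet (log2 fold change -1.02, limma adjusted p = 0.0173) and aged Hap-I hearts (-1.31, adjusted p = 0.0124).

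That difference did not hold once copies were counted. The nuclear pseudogene Gm28661 on chromosome 1 shares 99.5% of the 31-base words of mt-Co2 and was listed at 49030 scaled TPM on average. mt-Co2 held 21.2% to 75.7% of the summed level. Summed, the level was 49910, 82487, 55309, 106750 and 98929 scaled TPM in aged western-diet hearts and 61514, 73030 and 64561 in C57 hearts, overlapping groups with a log2 fold change of 0.18 (limma adjusted p = 0.643). mt-Co3, the third core subunit, was called lower in aged Hap-I than in adult western-diet hearts as listed (-1.36, adjusted p = 0.0369), and summed with its copy Gm28437, which shares 99.9% of its words, it was not (-0.94, adjusted p = 0.067). None of the mitochondrially encoded subunits was called with copies summed. Among the nuclear members, Cox7c shares 14% of its words with Gm12338, listed at 837 scaled TPM, and summing them left it uncalled (-0.45, adjusted p = 0.145, aged western-diet against C57).

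**Figure D5:**
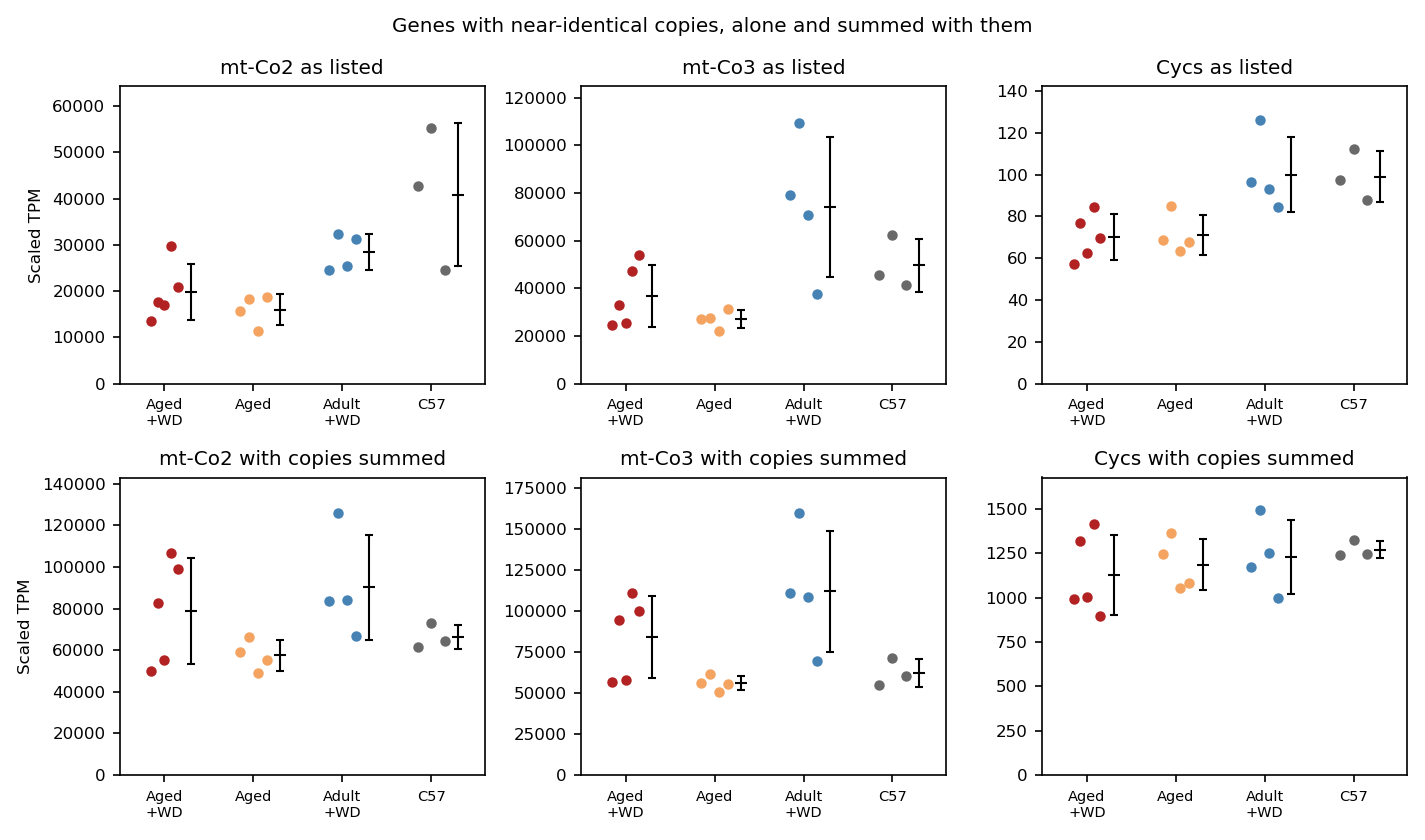
Scaled TPM of mt-Co2, mt-Co3 and Cycs as listed (top) and summed with their near-identical copies (bottom), 1 point per heart, with mean and SD in black; groups from left to right are aged western-diet, aged and adult western-diet Hap-I and C57. mt-Co2 as listed reaches 55261 in C57 hearts and at most 29715 in aged western-diet hearts, while the sums overlap.

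Genes that build the complexes were looked at as fixed lists. None of the 4 complex II assembly factors was called in any contrast (smallest limma adjusted p = 0.0522). Of 6 complex III assembly factors, Ttc19, which clears fragments of the Rieske protein, was called higher in the Hap-I mean against C57 (log2 fold change 0.33, limma adjusted p = 0.0249). In that contrast 1075 of all 11415 genes were called higher. Ttc19 was called in 24 of 32 alternative settings, and not with the Y-linked term (limma adjusted p = 0.0728). Of 25 tested assembly factors of complex IV and cytochrome c, 1 was called higher and 1 lower in aged western-diet against C57 hearts, where 12.3% of all genes were called higher and 9.57% lower, so neither count stood above the background. Surf1, a factor for the early assembly of complex IV, had 26, 29.3, 28.9, 28.5 and 25.7 scaled TPM in aged western-diet hearts, 27.4, 31.9, 28.7 and 27 in aged Hap-I hearts, 33.6, 32.6, 31 and 24.3 in adult western-diet hearts, and 37.6, 39.5 and 37.2 in C57 hearts. All 13 Hap-I hearts lay below C57, and the fold change was -0.45 (adjusted p = 0.00636) in aged western-diet and -0.40 (adjusted p = 0.0252) in aged Hap-I hearts. Coa5, another assembly factor of complex IV, had 39.8, 47.6, 39.4, 48.1 and 32 scaled TPM in aged western-diet hearts, 34.1, 32.6, 34.3 and 35.3 in aged Hap-I hearts, 30.8, 43, 36.4 and 41.3 in adult western-diet hearts, and 23.1, 28.1 and 23.5 in C57 hearts. Every Hap-I value was above the C57 values, and it was called higher in aged western-diet (0.70, adjusted p = 0.00247) and adult western-diet hearts (0.58, adjusted p = 0.032). Coa5 was also called higher in aged Hap-I hearts, at the threshold (0.44, limma adjusted p 0.05 after rounding). Cox10, which acts in the synthesis of haem A for the oxidase, was called higher in aged Hap-I hearts (0.30, limma adjusted p = 0.0331). In aged western-diet against C57 hearts Coa5 was called in all 25 alternative settings and Surf1 in 23. Calls in the other groups held less often. Of 24 settings in aged Hap-I hearts, Coa5 was called in 8, Surf1 in 13 and Cox10 in 15. In adult western-diet hearts Coa5 was called in 11 of 24. Of all genes, 818 were called higher and 463 lower in aged Hap-I against C57 hearts, and 223 higher in adult western-diet against C57 hearts.

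Of 10 regulators known to act on respiratory genes, 4 were called higher and none lower in aged western-diet against C57 hearts, where 12.3% of all genes were called higher. Ppargc1b, a coactivator of mitochondrial genes, had 2.77, 3.91, 4.09, 3.33 and 2.58 scaled TPM in aged western-diet hearts, 2.08, 2.09, 2.79 and 2.55 in aged Hap-I hearts, 1.83, 3.09, 2.16 and 1.57 in adult western-diet hearts, and 1.02, 0.958 and 1.15 in C57 hearts. Every Hap-I heart was above every C57 heart, at a log2 fold change of 1.07 (limma adjusted p = 0.00041) in aged western-diet, 0.72 (adjusted p = 0.0108) in aged and 0.61 (adjusted p = 0.0428) in adult western-diet hearts. The call in adult western-diet hearts held in 9 of 23 alternative settings. Ppara, a fatty acid sensor, had 10.9, 12.9, 12.8, 8.13 and 3.84 scaled TPM in aged western-diet hearts against 2.04, 3.28 and 2.02 in C57 hearts. The groups did not overlap (1.56, adjusted p = 0.0048). The nuclear receptor Esrrg (0.63, adjusted p = 0.00397) and the ETS factor Gabpa (0.56, adjusted p = 0.0041) were also higher. The same 4 genes were called in aged Hap-I against C57 hearts, a contrast that shares the C57 libraries. There 818 of all 11415 genes were called higher. Of 24 alternative settings in that contrast, Esrrg was called in 14, Ppara in 16 and Gabpa in 23, and Ppargc1b in all of its 23. With the length correction Esrrg was not called there (limma adjusted p = 0.0718). Ppargc1a had a fold change of 0.61 in aged western-diet hearts and was not called (adjusted p = 0.0657), and Tfam, the mitochondrial transcription factor, stood at 0.01 (adjusted p = 0.977). With the length correction the 4 regulators were called in aged western-diet hearts, for instance Ppargc1b at 1.04 (limma adjusted p = 0.000938). The median log2 fold change of the 10 regulators there was 0.35 with the correction and 0.45 without it. In aged Hap-I against C57 hearts it was 0.30 with the correction, with 3 called, and 0.44 without it. The part of transcript length in these differences was not tested. In aged western-diet against C57 hearts Ppargc1b was called in all 24 alternative settings, whereas Ppara, Esrrg and Gabpa were not called among the libraries with Y-linked transcripts or with the atrial covariate, and Esrrg and Gabpa not without scaling.

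The nuclear subunits of the 2 neighbouring complexes had values of the same sign. In aged western-diet against C57 hearts the 7 of 30 called lower in complexes II to IV, with their median log2 fold change of -0.32, stood beside 10 of 36 complex I genes, with a median of -0.40, and 8 of 15 ATP synthase genes, with a median of -0.50. Of all genes, 9.57% were called lower. With the length correction the medians were -0.16 in complexes II to IV, -0.23 in complex I and -0.31 in ATP synthase. Whether the lists differ was not tested.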

How the data were processed

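The authors deposited 1 table of TPM per gene for the series, per the file headers; the submitters' processing notes name kallisto, DESeq2 and GRCm38 without versions. Per the labels' protocols, RNA was column-extracted and polyadenylated RNA went into stranded TruSeq libraries. kallisto divides reads that match several genes by estimate. The library totals in the table ran from 942090 to 959772 TPM, and depth is unknown.

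Of 30153 gene IDs, 29732 had a symbol and 421 did not. A gene was tested if 3 or more libraries had 1 TPM or more (11415 genes). Each library was scaled by a median-of-ratios size factor (0.678 to 1.231). limma 3.58.1 in R 4.3.3 was fitted to log2(scaled TPM + 1) with 4 group means over 16 libraries and a variance trend; fold changes are on that scale and understate changes of low genes. Two-sided p-values were adjusted by Benjamini-Hochberg over all genes per contrast, with 0.05 as the threshold for a call. The fit was tested on simulated data with known changes.

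The members and lists were chosen with earlier results of these data known. All 30 genes are described; values per library are given for called members, the member of smallest p per complex and contrast, and isoform pairs. Other lists are given by counts, with called genes by name, up to 4 per list and contrast. Isoform ratios were compared by exact permutation (scipy 1.17.1). Near-identical copies were genes, other than overlapping ones, holding at least 3% of a member's 31-base words in the GENCODE transcripts of GRCm38 and averaging at least 1 scaled TPM; summing them was chosen after seeing the data. Transcript length is that of the longest protein-coding transcript, known for 11343 of the genes kept. Alternatives were other scalings, pseudocounts, filters and variance models, library weights, a fit of the compared groups alone, a term for Y-linked transcripts (summed level above 1 scaled TPM), a fit of libraries with them, a covariate for the mean level of atrial markers, a lowess correction of each library on transcript length, and the omission of each library. The setting named nuclear transcripts only left out genes whose symbol starts with mt- and rescaled the rest. It kept the near-identical copies Gm29216, Gm28661 and Gm28437, which averaged 96822, 49030 and 33694 scaled TPM. The share of the nuclear TPM given for the 30 genes left these copies out as well. P-values measure the spread between animals as the labels give them. No table column was left unused.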

Additional observations from a re-analysis of the deposited data

Results flagged for a closer look

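Of 102 sets of 4 or 5 values (a member in a Hap-I group, an isoform ratio among them) 1 had a value standing far from the rest, where chance gives about 1 in 20. Uqcrc2 was at 360 scaled TPM in aged western-diet replicate 5, and at 465 to 507 in the other 4 hearts of that group, the gap being 0.717 of the whole range.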

How the results depend on the processing

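Under every alternative run, each called member was lower in the first-named group except Cox6a1, which was called higher against C57 with the length correction, with and without the Y-linked term. Counts of called members were 7, 2, 0 and 4 in aged western-diet, aged and adult western-diet Hap-I hearts and the Hap-I mean against C57, and 0 in the other 3 contrasts. In that order of the 4, they were 10, 1, 2 and 5 without scaling, 2, 0, 0 and 0 with quantile normalization, 8, 1, 2 and 5 with nuclear transcripts only, and 13, 8, 1 and 10 with library weights. Library weights also gave 6 in aged western-diet and 2 in aged against adult western-diet hearts. Of all genes, library weights called 1766, 1658, 1208 and 1821 lower in the 4 contrasts against C57. Without the weights 1092, 463, 171 and 720 were called lower. In aged western-diet and aged against adult western-diet hearts the weights called 592 and 1402 lower, against 82 and 101 without. No scaling called 332, 21, 94 and 205 lower in the 4, and quantile normalization 998, 345, 153 and 619. Nuclear transcripts only called 324, 58, 77 and 239. Without the filter the aged contrast gave 0. With only the groups compared the first 2 counts were 2 and 9, with the Y-linked term 2 and 1 (2 in the Hap-I mean), among libraries with Y-linked transcripts 1 and 4, with the atrial covariate 4 in the first, with the length correction 9, 1 and 2 in the 3 groups, and with length and Y-linked terms 4 and 1. Of all genes, in the first 2 contrasts, 565 and 1146 were called lower with only the groups compared. With the Y-linked term it was 558 and 423, and among libraries with Y-linked transcripts 359 and 530. With the length correction it was 1111 and 332, and with length and Y-linked terms 538 and 308. Leaving out 1 library at a time gave 2 to 9, 0 to 3, 0 and 0 to 6 called members in the 4 contrasts against C57. In aged western-diet against adult western-diet hearts it gave 0 to 2, and in aged against adult western-diet hearts 0 to 1. The cause of these shifts was not tested.

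The members' median of -0.32 in aged western-diet against C57 hearts was -0.01 with quantile normalization and -0.12 with length and Y-linked terms. In aged Hap-I hearts it was -0.26 and became -0.09 without scaling, -0.11 with nuclear transcripts only, -0.01 with quantile normalization, and -0.05 with either length correction. In the Hap-I mean it was -0.26 and became 0.01 with quantile normalization. In aged against adult western-diet hearts it was -0.14 and became 0.21 without scaling, where the median of all genes moved to 0.27. Without scaling, that median was also -0.16 for the diet in aged hearts, 0.11 in aged western-diet against adult western-diet hearts, and -0.03, 0.13 and -0.13 in the 3 groups against C57. With 1 library left out the medians ran from -0.43 to -0.27, -0.33 to -0.2, -0.22 to -0.02 and -0.32 to -0.21 against C57, from -0.14 to 0.03 for the diet in aged hearts, from -0.3 to -0.09 in aged western-diet against adult western-diet hearts, and from -0.28 to -0.02 in aged against adult western-diet hearts. Sdhb, never called, reversed to 0.05, 0.09, 0.02 and 0.05 in the 4 contrasts against C57 with quantile normalization, and to 0.03 in aged Hap-I hearts with either length correction. In aged against adult western-diet hearts Cox7a2l reversed to 0.07 and Sdhc to 0.19 without scaling, and Sdhc to 0.06 with nuclear transcripts only. The exact isoform tests are too small to say anything of stability. The depth is unknown, so counting error could not be set beside the low levels of Ndufa4 and Cox4i2. No paired analysis was possible because the labels give no replicate numbers, and the numbers used here follow the order of the samples.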
